A study of Mus musculus with 8 samples.

Results

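The genes described here encode the machinery that stores neurotransmitter in synaptic vesicles and releases it from the nerve terminal. They are a list of 32 genes chosen by symbol, and all 32 matched an Ensembl identifier in a count table of 56748 genes. All 32 also passed the filter on low counts, among 21588 genes tested. The measurements are RNA-seq counts from mouse brain aged 18 months. The 4 libraries called Tg come from TgCRND8 mice, a line that overexpresses a mutant human amyloid precursor protein (APP) under the hamster prion protein promoter and forms amyloid plaques, and the 4 called NTg come from their non-transgenic littermates. The labels give no strain and no treatment other than the age, which both genotypes share, and every library carries the same batch value, so no split by batch was possible. One frozen and pulverised hemisphere supplied the RNA, which is described as forebrain. The labels number the libraries but do not say outright that each is a separate animal. The p-values between genotypes set the difference against the spread between these libraries.

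Vesicles are tethered in a reserve pool by synapsins, docked at the active zone by scaffold proteins, and fused by the SNARE complex when a synaptotagmin binds calcium. Complexins clamp and assist that complex, and dynamin with amphiphysin helps to retrieve the membrane after release. Most of these genes have close relatives that different neurons use in different proportions. Syt1 and Vamp2 serve most forebrain neurons, while Syt2 and Vamp1 are better known from hindbrain, spinal cord and fast inhibitory neurons.

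Libraries held 57129090 to 65242741 counts, and the 32 genes together took 1.29% to 1.47% of them. App, whose row can also collect reads of the human transgene, separated the genotypes as labelled, with 1390 to 1623 CPM (counts per 1000000 of the scaled library total) in NTg and 2532 to 2980 CPM in Tg. The forebrain label was checked against regional markers. Markers of cerebellum and hindbrain were not near 0: Gabra6, a GABA receptor subunit of cerebellar granule cells, stood at 63.9 to 180.2 CPM in NTg and 128 to 178 CPM in Tg. The 8 such markers summed to 493 to 964 CPM in NTg and 650.0 to 883 CPM in Tg, none of them was at 0 in any library, and 0 of 8 passed the test between genotypes. Tg replicate 1 stood apart in a forebrain list, with 8 cortical and hippocampal glutamatergic markers at 1515 CPM in sum against 1733 to 2194 CPM in the other libraries. It was also the Tg library nearest to NTg in astrocyte and microglial markers, which were 0.17 and 0.34 above the NTg mean there on the log2 scale and 0.68 to 0.83 and 0.88 to 1.00 in the other Tg libraries. Over the whole lists, the 4 astrocyte markers summed to 1233 to 1491 CPM in NTg and 1591 to 3114 CPM in Tg and the 4 microglial markers to 147 to 193 CPM and 202 to 315 CPM, and the part of these cells in the values below was not tested. For some of the genes below, the value without Tg replicate 1 is given as well.

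As a group, the 32 genes differed little between genotypes at 18 months. The test of each gene (edgeR's quasi-likelihood F test, Benjamini-Hochberg adjustment over all 21588 genes) called 0 of 32 at an adjusted p of 0.05, where it called 0.0139% of all genes. At an unadjusted p under 0.05 it picked 2, Vamp1 (lower in Tg) and Rims1 (higher in Tg), against 7.36% of all genes tested. In single directions 1 of 32 was higher, against 4.68% of all genes, and 1 of 32 was lower, against 2.68%. The fitted log2 fold changes of Tg over NTg ran from -0.24 to 0.29 with a median of -0.05, beside a median of -0.0024 over all genes and -0.01 over the 11244 genes at least as abundant as the least abundant of the 32. Of the 32, 24 lay below 0 and 8 above, with 25 and 7 under the RLE size factors of DESeq2 and 22 and 10 under total counts alone. Also below 0 were 10973 of all 21588 genes, and 6403 of the 11244 genes at least as abundant as the least abundant of the 32. The 95% intervals of 23 of the 24 members below 0 crossed 0. Mean CPM differed by less than 10% for 28 of the 32. It did so for 14766 of all 21588 genes, and for 9910 of the 11244 genes at least as abundant as the least abundant of the 32. That set shares only a lower limit with the 32 and is not matched to them in abundance. In whole tissue, fewer cells of a type and less RNA per cell cannot be told apart.

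**Figure D1:**
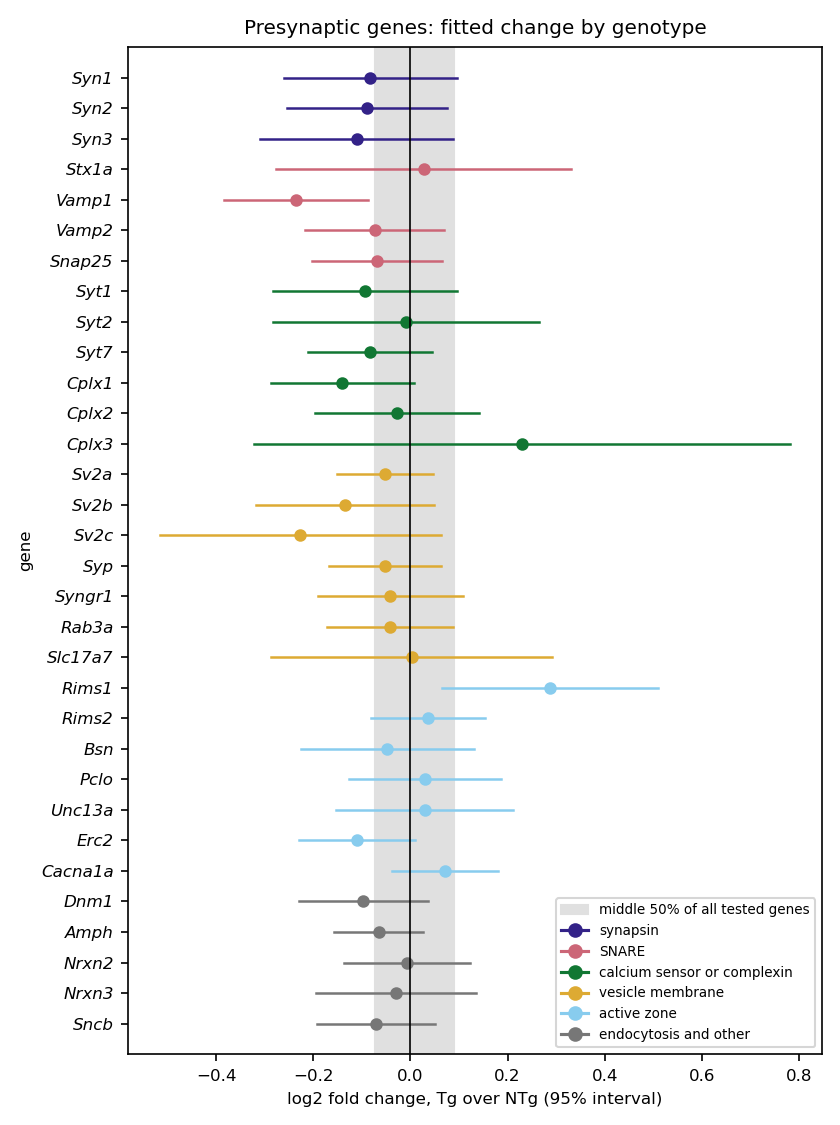
Fitted log2 fold change of Tg over NTg for each of the 32 genes (points) with its 95% interval (lines), coloured by role, and the middle 50% of all tested genes in grey. The intervals of Vamp1 and Rims1 lie to one side of 0 and the other 30 cross it.

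The score of a library, taken as the mean log2 CPM of the 32 genes, was 8.16, 8.06, 8.11 and 8.03 in NTg replicates 1 to 4 and 7.99, 8.06, 8.03 and 8.13 in Tg replicates 1 to 4. The genotypes overlapped, with Tg replicate 4 above 3 of the NTg libraries and Tg replicate 1 lowest of all. The means were 8.09 ± 0.06 in NTg and 8.05 ± 0.06 in Tg (SD, n = 4), a difference of -0.04 that is smaller than the SD within either genotype. No p-value is given for the score. Tg replicate 1 held the lowest of 8 values for 10 of the 32 genes and the highest for none, and without it the score difference was -0.02. It was also -0.02 without NTg replicate 1, which held the highest value for 9 genes, and -0.07 without Tg replicate 4. The 6 pan-neuronal markers (Rbfox3, Map2, Tubb3, Eno2, Stmn2 and Nefl) summed to 3224 to 3331 CPM in NTg. In Tg replicates 1 to 4 the sums were 3191, 3105, 3356 and 3162 CPM. Tg replicate 3 thus lay above every NTg library and the other Tg libraries below them all, unlike the score. Of the 6, 4 were fitted below 0 and 2 above, and 0 passed the test. Eno2 had Tg wholly below NTg (949 and 890 CPM in NTg and Tg, adjusted p = 0.712 by edgeR), as in 1.58% of all genes.

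**Figure D2:**
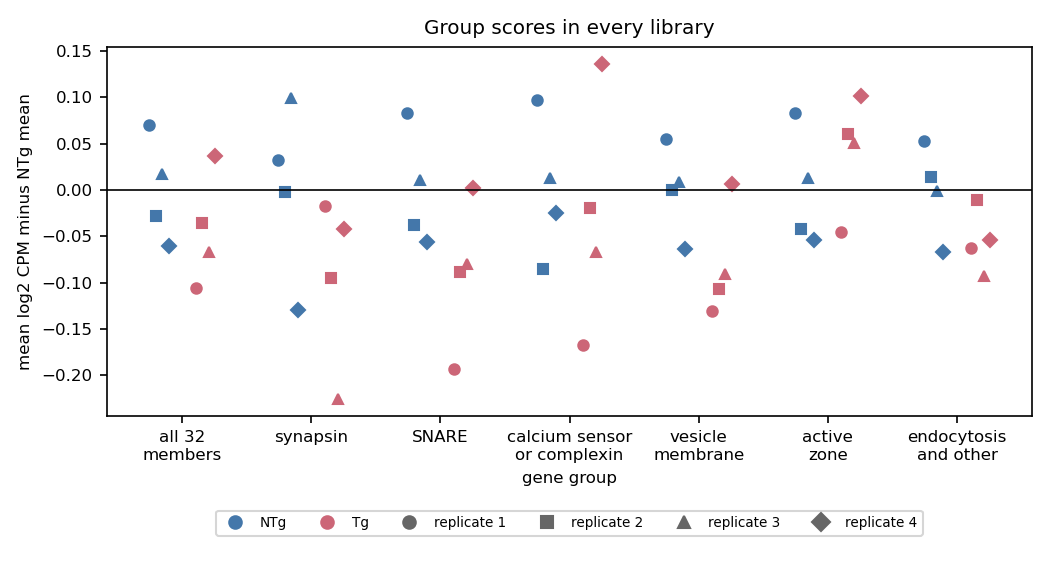
Mean log2 CPM of all 32 genes and of each role, relative to the NTg mean, for every library (colour: genotype, shape: replicate). For all 32 genes the Tg libraries lie between -0.11 and 0.04 and the NTg libraries between -0.06 and 0.07.

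The promoter windows of Vamp1 and Rims1 are shown first because these are the genes with an unadjusted p under 0.05. They run from 250 to 51 bases before the RefSeq start, on the gene's strand, at chr6:125215331-125215530 (plus strand) for Vamp1 and chr1:22806209-22806408 (minus strand) for Rims1 in build GRCm38.p6, and hold no annotated exon of GENCODE M21. Capitals mark the GC box GGGCGG on either strand, which binds Sp-family factors.
Vamp1: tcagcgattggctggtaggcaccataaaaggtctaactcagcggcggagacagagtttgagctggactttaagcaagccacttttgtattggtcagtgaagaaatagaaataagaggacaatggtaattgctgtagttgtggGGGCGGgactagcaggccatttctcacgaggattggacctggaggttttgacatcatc
Rims1: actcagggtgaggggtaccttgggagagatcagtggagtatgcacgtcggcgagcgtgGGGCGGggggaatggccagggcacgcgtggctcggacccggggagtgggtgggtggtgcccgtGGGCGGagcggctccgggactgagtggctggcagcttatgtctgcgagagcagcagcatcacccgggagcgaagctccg
The Vamp1 window held 1 GC box and the Rims1 window 2. In the 250 bases before a start, GGGCGG on either strand was found for 16 of the 25 genes of the group that matched the promoter table. It was found for 35.4% of the 27025 genes in that table. A gene with several starts there counted once if any of its windows matched, so these shares also depend on the number of starts. The left part of the RE1 element, CAGCACC, through which REST represses neuronal genes in other tissues, was found for 2 of the 25, Syn1 and Sv2c, against 6.56% of all genes. Its right part, GGACAG, was found for 7 of the 25 against 21.0% of all genes. No gene of the group held both parts in the same window, against 1.40% of all genes. These are matches of letters in short windows and are given as a description.

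The SNARE genes encode the proteins that zip vesicle and plasma membrane together. Vamp1 (ENSMUSG00000030337), a vesicle SNARE also called synaptobrevin 1, stood at 361, 385, 366 and 384 CPM in NTg replicates 1 to 4 and at 358, 295, 297 and 321 CPM in Tg replicates 1 to 4. Every Tg library lay below every NTg library, but Tg replicate 1 missed the lowest NTg library by a narrow margin. The log2 fold change was -0.24 (SE 0.07, 95% interval -0.38 to -0.09), and edgeR gave an unadjusted p of 0.00565 and an adjusted p of 0.301. Vamp1 was the 1 gene of 32 whose genotypes did not overlap with Tg below, as in 1.58% of all genes tested, and 0 lay wholly above, against 2.62% of all genes (4.2% in either direction). DESeq2 called Vamp1 on the same counts (adjusted p = 0.0436), the only one of the 32 it called, where it called 1.81% of all genes with an adjusted p. At an unadjusted p under 0.05 DESeq2 picked 3 of the 32, Vamp1, Rims1 and Cplx1, against 7.35% of all genes. Without Tg replicate 1 edgeR also called it alone among the 32 (log2 fold change -0.30, adjusted p = 0.0316), where it called 1.43% of all genes. Over the 7 other left-out libraries its log2 fold change stayed between -0.25 and -0.20, and edgeR called it in none of those. Some marker lists were also lower in Tg. The 7 thalamic markers summed to 429 to 576 CPM in NTg and 345 to 433 CPM in Tg, all 7 with lower means in Tg and 0 passing the test. The 7 GABAergic markers summed to 1079 to 1233 CPM in NTg and 950.4 to 1200.2 CPM in Tg, with 6 of 7 fitted below 0 and 0 passing the test. The 3 choroid plexus markers summed to 576 to 882 CPM in NTg and 294 to 549 CPM in Tg, each with Tg wholly below NTg. Of these 3 markers, edgeR called 0 and DESeq2 called all 3. Over the 8 libraries Vamp1 and the mean log2 CPM of the thalamic markers had r = 0.27 (exact permutation p = 0.521, adjusted 0.757). Without NTg replicate 1 and Tg replicate 4 that r was 0.03. It was -0.38 with the cortical and hippocampal glutamatergic markers, 0.47 with the striatal and -0.0018 with the cerebellar and hindbrain markers. Their exact permutation p-values were 0.374, 0.236 and 0.996. The part of tissue and cell composition in Vamp1 was not tested.

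Vamp2, the main vesicle SNARE of forebrain, was at 672 ± 49.6 CPM in NTg against 638 ± 31.1 CPM in Tg (SD, n = 4; adjusted p = 0.909 by edgeR). The ratio of Vamp1 to Vamp2 CPM within a library was 0.51 to 0.64 in NTg and 0.46, 0.46, 0.48 and 0.60 in Tg, where Tg replicate 1 held the 0.60 and overlapped NTg. Snap25, the plasma membrane SNARE and the gene with the highest CPM of the 32, stood at 2549.9, 2348, 2478 and 2582 CPM in NTg and 2169, 2388, 2539 and 2397 CPM in Tg. Its genotypes overlapped, with Tg replicate 1 lowest (log2 fold change -0.07, 95% interval -0.20 to 0.06, adjusted p = 0.907 by edgeR), and without it the log2 fold change was -0.03. Stx1a, a plasma membrane syntaxin, varied widely within both genotypes, from 96.3 to 132 CPM in NTg and 84.7 to 131 CPM in Tg. Its interval, -0.28 to 0.33 on the log2 scale, is among the wider ones of the group. The log2 fold change of Stx1a was 0.03, but 0.14 without Tg replicate 1 and -0.06 without Tg replicate 4.

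**Figure D3:**
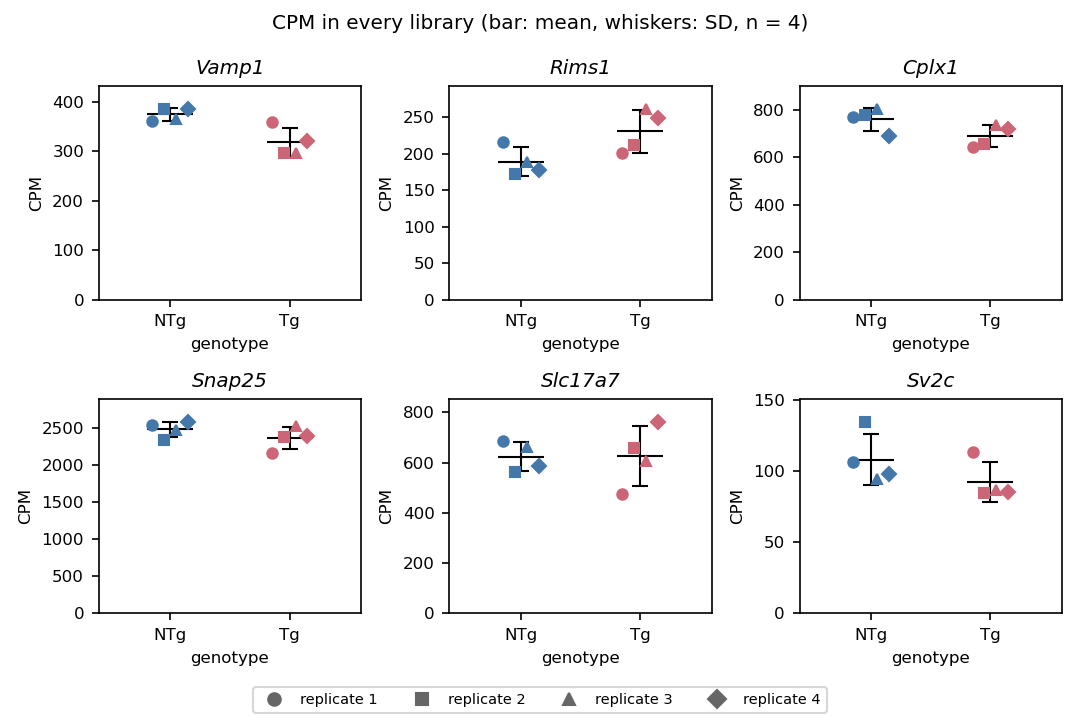
CPM of 6 of the genes in every library (points, shape by replicate), with the mean and SD of 4 libraries per genotype, on linear axes from 0. The Vamp1 points of Tg lie below those of NTg, while the other 5 genes overlap.

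Active zone genes, which organise the release site, were the role with the most members above 0, with 5 of 7 higher in Tg and a median log2 fold change of 0.03. Rims1 (ENSMUSG00000041670), a scaffold that links vesicle-bound Rab3 to calcium channels, stood at 217, 172, 188 and 178 CPM in NTg and 201, 212, 262 and 248 CPM in Tg. Tg replicates 3 and 4 lay above every NTg library, while Tg replicates 1 and 2 lay below NTg replicate 1. The log2 fold change was 0.29 (SE 0.10, 95% interval 0.07 to 0.51), the largest of the 32 in either direction, with an unadjusted p of 0.0165 and an adjusted p of 0.457 by edgeR and 0.211 by DESeq2. It was between 0.22 and 0.36 over the 8 left-out libraries, called in none, and its unadjusted p was above 0.05 without NTg replicate 2 or without Tg replicate 3. Its relative Rims2 was at 124 ± 6.99 CPM in NTg against 127 ± 5.15 CPM in Tg (SD, n = 4). The ratio of Rims1 to Rims2 CPM was 1.41 to 1.65 in NTg and 1.63, 1.71, 1.95 and 1.94 in Tg, so that 3 Tg libraries lay above all NTg libraries.

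Bsn, which encodes the giant scaffold bassoon and had the highest CPM of this role, was at 322, 276, 293 and 261 CPM in NTg and 264, 284, 256 and 309.8 CPM in Tg. The values interleave (log2 fold change -0.05, 95% interval -0.23 to 0.13, adjusted p = 0.966 by edgeR). Its partner Pclo (piccolo) was at 188 and 192 CPM, the vesicle priming factor Unc13a at 243 and 248 CPM and Cacna1a, the pore of P/Q-type calcium channels, at 130.4 and 137 CPM in NTg and Tg. Erc2, a further scaffold, went the other way at 132 ± 6.18 CPM in NTg against 122 ± 6.46 CPM in Tg (SD, n = 4; log2 fold change -0.11, 95% interval -0.23 to 0.01, adjusted p = 0.719 by edgeR). The adjusted p-values of these 5 genes by edgeR lay between 0.719 and 0.984. The log2 fold change of Unc13a was 0.03, but 0.09 without Tg replicate 1 and -0.03 without NTg replicate 4.

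Among calcium sensors and complexins, 5 of 6 were lower in Tg with a median log2 fold change of -0.06, and 0 passed the test. Cplx1, a complexin, had the smallest p of this role, at 769, 778, 805 and 691 CPM in NTg and 645, 658, 739 and 720.1 CPM in Tg. NTg replicate 4 lay among the Tg libraries and the other 3 NTg libraries above them (log2 fold change -0.14, SE 0.07, unadjusted p = 0.0597, adjusted p = 0.706 by edgeR). Cplx2, the other main complexin of forebrain, was at 904 ± 72.9 and 887 ± 71.1 CPM in NTg and Tg (SD, n = 4; adjusted p = 0.984 by edgeR). Cplx3, found in neurons of layer 6b and in retina, was scarce at 6.80 to 10.3 CPM in NTg and 5.66 to 14.1 CPM in Tg, and its 95% interval from -0.32 to 0.78 is the widest of the group. Its log2 fold change was 0.23, but 0.41 without Tg replicate 1 and -0.03 without Tg replicate 4.

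Syt1, the fast calcium sensor of most forebrain synapses, stood at 1247, 1063, 1165 and 1074 CPM in NTg and 909, 1159, 1125 and 1071 CPM in Tg. Tg replicate 1 was lowest of 8 and the other Tg libraries lay within the NTg range (log2 fold change -0.09, 95% interval -0.28 to 0.10, adjusted p = 0.910 by edgeR). Without Tg replicate 1 the log2 fold change of Syt1 was -0.02. Syt2, its fast hindbrain and interneuron relative, was highest in NTg replicate 4 at 256 CPM and Tg replicate 1 at 245 CPM, against 178 to 203 CPM in the other 6 libraries. Those are also the libraries with the most Gabra6, at 180.2 and 178 CPM, against 63.9 to 129.9 CPM in the rest. Pcp2, Cbln1 and Cbln3 were also highest there, but the other markers of that list were not. Zic1 and Zic2 were higher in Tg replicate 2 than in Tg replicate 1. Slc6a5 was highest in NTg replicate 2 (79.6 CPM, against 30.1 CPM in Tg replicate 1), and Hoxb5 was at 1.04 CPM in NTg replicate 4. Over the 8 libraries Syt2 and the cerebellar and hindbrain score had r = 0.75 (exact permutation p = 0.0378, adjusted 0.370) and rho = 0.45 (exact permutation p = 0.267, adjusted 0.571). Without NTg replicate 4 and Tg replicate 1 r was 0.15, so the relation rests on them. Between genotypes Syt2 was at 207 ± 33.6 and 206 ± 28.2 CPM (SD, n = 4), and its log2 fold change of -0.01 turned to 0.02 under total counts alone. Without Tg replicate 1 the log2 fold change of Syt2 was -0.10, and without NTg replicate 4 it was 0.11. Syt7, a slower sensor, was at 264 ± 12.7 and 249 ± 15.1 CPM (adjusted p = 0.858 by edgeR).

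The 7 vesicle membrane genes had a median log2 fold change of -0.05, and 6 of 7 were lower in Tg, with 0 passing the test. Slc17a7, the vesicular glutamate transporter of cortex and hippocampus and the gene with the highest mean CPM of this role, stood at 684, 563, 661 and 586 CPM in NTg and 473, 658, 608 and 759.9 CPM in Tg. Tg libraries held both the lowest and the highest value, and the means hardly differed (log2 fold change 0.0025, 95% interval -0.29 to 0.29, adjusted p = 0.999 by edgeR). Its sign turned with the RLE size factors of DESeq2 (-0.0014), and it was 0.11 without Tg replicate 1 and -0.11 without Tg replicate 4. Sv2c, the SV2 isoform best known from the basal ganglia, had the smallest p of this role, at 106, 134, 94.2 and 97.9 CPM in NTg and 114, 84.3, 86.7 and 85.1 CPM in Tg. Tg replicate 1 lay among the NTg libraries and the other 3 Tg libraries below them all (log2 fold change -0.23, SE 0.13, unadjusted p = 0.111, adjusted p = 0.797 by edgeR). Without Tg replicate 1 its log2 fold change was -0.34 and its unadjusted p passed 0.05, with an adjusted p of 0.291 by edgeR. Without NTg replicate 2, the highest library, the log2 fold change was -0.10.

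The 6 striatal markers summed to 372 to 527 CPM in NTg and 329 to 499 CPM in Tg, and the list stood highest in NTg replicate 2 and Tg replicate 1, at 0.29 and 0.18 above the NTg mean on the log2 scale. These hold the highest Sv2c values of their genotypes. Over the 8 libraries Sv2c and the striatal score had r = 0.62 (exact permutation p = 0.103, adjusted 0.445) and rho = 0.62 (exact permutation p = 0.115, adjusted 0.446), and r was 0.10 without NTg replicate 2 and Tg replicate 2, so the relation did not hold without them. Sv2a, the SV2 isoform of most synapses, was at 549.5 ± 15.3 and 529.8 ± 14.2 CPM and Sv2b at 403 ± 30.4 and 367 ± 37.5 CPM in NTg and Tg (SD, n = 4). The log2 fold change of Sv2b was -0.14, and -0.08 without Tg replicate 1. Synaptophysin (Syp), an abundant vesicle protein, was at 587 and 566 CPM, synaptogyrin (Syngr1) at 509.7 and 495 CPM and Rab3a, the small GTPase of docked vesicles, at 409 and 397 CPM. Their adjusted p-values by edgeR lay between 0.824 and 0.963.

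All 3 synapsins, the phosphoproteins that tether the reserve pool of vesicles, had lower means in Tg, with 0 of 3 passing the test. Syn3, the scarcest, had the smallest p, at 11.2, 11.4, 12.2 and 10.4 CPM in NTg and 11.9, 9.88, 9.41 and 10.7 CPM in Tg (log2 fold change -0.11, 95% interval -0.31 to 0.09, adjusted p = 0.893 by edgeR). Syn2 was at 387, 392, 437 and 377 CPM in NTg and 414, 370.5, 332 and 381 CPM in Tg, where Tg replicate 1 lay below only NTg replicate 3 (log2 fold change -0.09, adjusted p = 0.902 by edgeR). Without Tg replicate 1 the log2 fold changes were -0.18 for Syn3 and -0.14 for Syn2. Tg replicate 1, low in Snap25 and Syt1, was thus not low in Syn2 or Syn3. Syn1 was at 334 ± 33.0 and 315 ± 22.7 CPM (SD, n = 4).

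The remaining genes serve membrane retrieval and adhesion. Dnm1, the neuronal dynamin that pinches off vesicles, had both the smallest p and the highest CPM of this set, at 1037, 946, 988 and 919 CPM in NTg and 891, 939, 844 and 964 CPM in Tg. The genotypes overlapped (log2 fold change -0.10, SE 0.06, 95% interval -0.23 to 0.04, adjusted p = 0.826 by edgeR). Amph (amphiphysin), which recruits dynamin, was at 208 ± 6.13 and 199 ± 3.73 CPM, and Sncb (beta-synuclein) at 271 ± 8.21 and 258 ± 16.8 CPM in NTg and Tg (SD, n = 4). The presynaptic adhesion genes Nrxn2 (252 and 251 CPM) and Nrxn3 (206 and 201 CPM) had log2 fold changes of -0.01 and -0.03, and that of Nrxn2 turned to 0.02 under total counts alone.

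**Figure D4:**
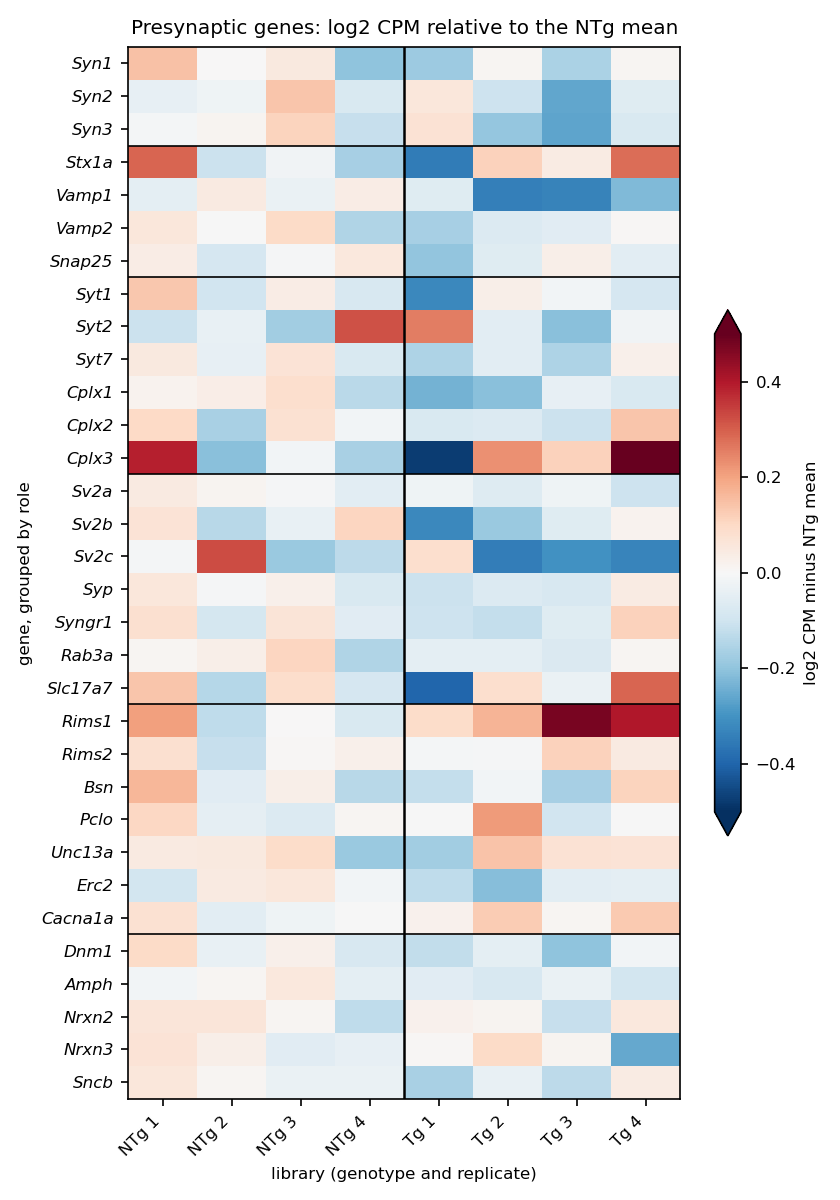
Log2 CPM of each of the 32 genes (rows, grouped by role) in each library (columns), relative to the NTg mean of the gene. Vamp1 and Sv2c are blue in Tg replicates 2 to 4, Rims1 is red in Tg replicates 3 and 4, and Slc17a7, Stx1a and Syt1 are blue in Tg replicate 1.

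Levels were compared between genes per kilobase of exon, with exon lengths from GENCODE M21. Snap25 (367 ± 15.3 CPM per kb in NTg; SD, n = 4) and Cplx1 (348 ± 22.4) headed the order and did not differ beyond their SDs. Dnm1 (185 ± 9.83), Rab3a (184 ± 13.3), Cplx2 (184 ± 14.8) and Vamp2 (176 ± 13.0 CPM per kb) followed as a set within each other's SDs. Vamp1 stood at 36.8 ± 1.23 and Rims1 at 25.7 ± 2.68 CPM per kb. The large scaffold genes Bsn and Pclo lay at 18.1 ± 1.65 and 8.36 ± 0.45 CPM per kb, and Cplx3 (2.70 ± 0.54) and Syn3 (0.92 ± 0.06) were last. Annotated exons that these neurons do not use lower such values, so the order is approximate.

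How the genes moved with regional composition was described over the 8 libraries, with 4 regional marker scores and 128 relations in all, of which 0 passed an adjusted p of 0.05 and 15 an unadjusted one (11.7%). Over all 21588 genes and the same scores, 6.47% of relations passed the unadjusted one, and the relations share libraries and genes. Slc17a7 moved with the cortical and hippocampal glutamatergic score (Pearson r = 0.90, exact permutation p = 0.00315, adjusted 0.121, and Spearman rho = 0.88, exact permutation p = 0.00724, adjusted 0.232, n = 8). Without Tg replicate 1 and NTg replicate 1, the libraries farthest from the median score, r was 0.75. Stx1a showed a similar relation to the same score (r = 0.89, exact permutation p = 0.00171, adjusted 0.110, and rho = 0.93, exact permutation p = 0.00223, adjusted 0.195, n = 8), with r = 0.76 without those libraries. Vamp2 ran against the cerebellar and hindbrain score (r = -0.89, exact permutation p = 0.00127, adjusted 0.110, and rho = -0.90, exact permutation p = 0.00456, adjusted 0.195, n = 8), with r = -0.73 without NTg replicate 4 and Tg replicate 1. The largest r was that of Syt1 with the cortical and hippocampal glutamatergic score (r = 0.92, exact permutation p = 0.00377, adjusted 0.121). Its rho was 0.81 (exact permutation p = 0.0218, adjusted 0.325), and r was 0.62 without Tg replicate 1 and NTg replicate 1. Within a genotype there are 4 libraries, too few for a value. The relations printed here and above were chosen after their values were seen, and all values of a library share its RNA and its scaling.

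A further list of 55 release genes outside the group, drawn up from general knowledge, was fitted in the same way. Of the 54 tested, edgeR called 0, and at an unadjusted p under 0.05 1 was higher and 5 lower in Tg, beside the 4.68% and 2.68% of all genes given above. That total of 6 was 2 under total counts alone and ran from 2 to 10 with a library left out. Their median log2 fold change was -0.05. Synj1, the lipid phosphatase synaptojanin that strips clathrin from retrieved vesicles, had the smallest p, at 389, 376, 396 and 385 CPM in NTg and 361, 361, 353 and 351 CPM in Tg. Its genotypes did not overlap, and its log2 fold change was -0.12 (SE 0.04, unadjusted p = 0.0158, adjusted p = 0.448 by edgeR). DESeq2 called it, and no other gene of this list (adjusted p = 0.0198). Nsf, the ATPase that takes spent SNARE complexes apart, was at 867, 846, 891 and 800.2 CPM in NTg and 799, 787, 769 and 778 CPM in Tg. Its genotypes were separated by a narrow margin, with NTg replicate 4 just above Tg replicate 1 (adjusted p = 0.593 by edgeR), and it was singled out after its values were seen. That makes 2 of 54 with Tg wholly below, beside 1.58% of all genes.

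Dnm3, a dynamin relative, was at 245 ± 4.17 CPM in NTg against 219 ± 18.1 CPM in Tg, and Rab3b, a relative of Rab3a, at 35.0 ± 4.14 and 41.3 ± 3.72 CPM (SD, n = 4; adjusted p = 0.529 and 0.558 by edgeR). Without Tg replicate 1 edgeR called 1 gene of this list, Unc13c, a priming factor best known from cerebellum. It stood at 138 and 117 CPM in NTg and Tg with all 8 libraries (adjusted p = 0.784).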

How the data were processed

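RNA-seq counts per gene were measured in 8 libraries of mouse brain, 4 Tg and 4 NTg. The authors deposited raw counts by Ensembl identifier. Per the labels' protocols, polyA RNA was made into unstranded TruSeq libraries and sequenced in pools as paired reads of 75 bases. The tools named there are STAR and DESeq2 and the build is GRCm39 (mm39), per the submitters' processing notes. How reads were assigned to genes, and with which annotation, is not given in the sources used here. Without strand, reads of overlapping genes cannot be told apart.

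Symbols matched 52073 identifiers, holding 99.58% of counts. Counts were fitted with edgeR 4.0.16 in R 4.3.3 (TMM scaling, filterByExpr with a minimum count of 10 and a minimum total of 15, quasi-likelihood F test, Benjamini-Hochberg adjustment), and calls used an adjusted p of 0.05. DESeq2 1.42.0 and limma-voom 3.58.1 were alternatives, beside other scalings, filters and left-out libraries. CPM used TMM library sizes, and the score used log2 CPM with a prior count of 2. Exon lengths came from GENCODE M21 and promoters from RefSeq, both on GRCm38, and no coordinate was converted. No 2 libraries of the same genotype agreed within sampling noise (lowest chi-square 10.1 per degree of freedom), and pairs across genotypes were not compared.

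The members and lists were chosen with earlier results of these data known. By rule, every library's value is printed for the gene with the smallest p and the one with the highest CPM in each role, and, outside the group, the 3 genes with the smallest p are named. Protein sequences were not analysed here.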

Additional observations from a re-analysis of the deposited data

Results flagged for a closer look

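Among 78 groups of 4 libraries, 2 held a library far from the other 3 by Dixon's test at its 95% critical value, where chance sets apart about 1 group in 20. In Tg, Cplx2 was at 993 CPM in replicate 4 against 838 to 861 CPM in the other 3 libraries. In Tg, Sv2c was at 114 CPM in replicate 1 against 84.3 to 86.7 CPM in the other 3. No cause was tested for either.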

How the results depend on the processing

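The score difference was computed under other scalings, another prior count, a median over genes, 4 genes left out and each library left out, and stayed between -0.07 and -0.02. The median log2 fold change of the 32 genes lay between -0.09 and -0.03 under the alternatives fitted. The count of all genes called was 3, and it was 352 with DESeq2, 127 with no filter on low counts, 1 with the replicate block, and 3 to 314 when 1 library was left out. It was 314 without Tg replicate 1, 16 without NTg replicate 1 and 9 without Tg replicate 2. Of the 32 genes, 0 were called, but 1 with DESeq2 and 0 to 1 with a library left out, both times Vamp1. Those at an unadjusted p under 0.05 numbered 1 to 4 when a library was left out (2 with all), with 1 without NTg replicate 2 and 4 without Tg replicate 4. Of the further release genes, 1 was called with DESeq2 (Synj1) and 0 to 1 with a library left out (Unc13c, without Tg replicate 1). Their number at an unadjusted p under 0.05 was 6 with all libraries, 2 without NTg replicate 2, NTg replicate 3 or Tg replicate 4, and 10 without NTg replicate 4 or Tg replicate 1. The cause of these shifts was not tested.

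The log2 fold change of Slc17a7 turned to -0.0014 with DESeq2 and with RLE size factors, and to -0.0135 with limma-voom and -0.0128 with the replicate block. Those of Syt2 and Nrxn2 turned to 0.0172 and 0.0166 with total counts only. With a library left out, signs turned for 11 genes: Bsn (-0.103 to 0.0109), Cplx2 (-0.0862 to 0.00654), Cplx3 (-0.0325 to 0.41), Nrxn2 (-0.0476 to 0.0267), Nrxn3 (-0.0750 to 0.0380), Pclo (-0.0353 to 0.0709), Rims2 (-0.00014 to 0.0638), Slc17a7 (-0.11 to 0.11), Stx1a (-0.0630 to 0.14), Syt2 (-0.10 to 0.11) and Unc13a (-0.0277 to 0.0914). No called value turned sign.

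Genotypes share replicate numbers in the labels, but deviations of same-numbered libraries correlated at -0.03 to 0.16 and 1 of 4 Tg libraries matched its own number best, so the numbers were not taken as pairs. With the replicate block the score difference was -0.04, equal to the main value by construction, 0 of the 32 genes were called, and the adjusted p of App was 0.0838 by edgeR. With 4 libraries per genotype the median SE of a log2 fold change among the 32 genes was 0.07, so changes much smaller than the intervals printed above were not detectable.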
